A study of Mus musculus with 6 samples.

Results

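The 10 genes described here serve signalling by acetylcholine. They are the choline transporter Slc5a7, the synthetic enzyme Chat, the vesicular transporter Slc18a3, the degrading enzyme Ache, the muscarinic receptors Chrm1, Chrm2, Chrm3 and Chrm4, and the nicotinic receptor subunits Chrna4 and Chrna7. Slc5a7 was picked for its low p in the comparison of the genotypes, and the other 9 because they are cholinergic genes. Each gene was read from the brightest probe set that the platform annotation pairs with that symbol alone, and all 10 were among the 22180 genes tested, with no filter on dim probe sets. Gene expression was measured on whole-transcript arrays in hippocampi dissected from hemibrains of 3 Ahr-KO and 3 wild-type mice, 1 array for each animal. The product of Ahr is a transcription factor switched on by small aromatic ligands, and the arrays compare hippocampi of the 2 genotypes. The labels describe the genotypes as Ahr-KO and wildtype and name no age, strain, driver or allele.

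Acetylcholine reaches the hippocampus mainly along axons from the medial septum and the diagonal band of the basal forebrain, an input tied to theta rhythm, attention and memory. In a cholinergic terminal, choline is taken up by the transporter that Slc5a7 encodes, joined to an acetyl group by choline acetyltransferase (Chat), packed into vesicles by the product of Slc18a3 and, once released, split by acetylcholinesterase (Ache). The cell bodies of the septal neurons, where most of their mRNA is found, lie outside the hippocampus, whereas muscarinic and nicotinic receptors are made by hippocampal neurons themselves.

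The sequences before the starts of the 3 genes of the terminal are shown because the comparison removes a transcription factor. The heterodimer of AHR and ARNT binds DNA at a core of GCGTG. This core was searched on both strands, as GCGTG and as its reverse complement CACGC. The windows come from RefSeq (build GRCm38.p6), run from 250 bases before to 50 bases after the listed start, and matched 9 of the 10 genes. The missing entry is Chrm1. Slc5a7 and Chat have the 250 bases before the start at chr17:54299035-54299284 and chr14:32465910-32466159, and Slc18a3 at chr14:32464851-32465100, all on the minus strand. In RefSeq, Slc18a3 lies within Chat, the arrangement known as the cholinergic locus. No complete core stands in these 3 stretches, so they hold no capitals, although the last 2 bases before Chat open a core that runs across its start.
Slc5a7: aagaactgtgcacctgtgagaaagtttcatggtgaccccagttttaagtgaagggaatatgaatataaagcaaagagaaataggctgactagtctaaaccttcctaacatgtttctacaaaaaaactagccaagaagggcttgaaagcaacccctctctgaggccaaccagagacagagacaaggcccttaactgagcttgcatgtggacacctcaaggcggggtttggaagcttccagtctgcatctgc
Chat: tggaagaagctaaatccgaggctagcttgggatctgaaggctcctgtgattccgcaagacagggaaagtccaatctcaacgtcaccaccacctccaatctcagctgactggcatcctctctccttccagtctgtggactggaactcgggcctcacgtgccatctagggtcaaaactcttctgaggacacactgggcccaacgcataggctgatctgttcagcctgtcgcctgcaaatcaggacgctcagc
Slc18a3: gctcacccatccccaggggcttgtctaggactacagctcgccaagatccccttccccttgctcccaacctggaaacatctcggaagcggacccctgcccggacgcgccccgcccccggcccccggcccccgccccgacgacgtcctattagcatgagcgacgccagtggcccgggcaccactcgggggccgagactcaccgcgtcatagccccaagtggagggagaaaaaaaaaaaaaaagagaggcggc

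The 250 bases before Slc5a7 held 1 CG dinucleotide and 45.6% G and C, against 8 and 54.8% for Chat and 21 and 66% for Slc18a3. The medians over all 32851 windows were 6 CG dinucleotides and 52.4%, and 18.8% of windows had no more CG dinucleotides than Slc5a7. The windows of Slc5a7, Slc18a3, Chrna4 and Chrna7 held no core, and those of Chat, Ache, Chrm2, Chrm3 and Chrm4 did. The core is common, standing in 32.4% of all windows. Its matches in the 5 genes are shown with up to 8 bases on each side, the core in capitals, 5′ to 3′ on the strand of the gene. They lie at chr14:32465899-32465919 (minus) for Chat, chr5:137288004-137288023 (plus) for Ache, chr6:36388101-36388121 (plus) for Chrm2, chr13:10360998-10361018 (minus) for Chrm3, and chr2:91922136-91922156 and chr2:91922160-91922180 (plus) for Chrm4. A match is a string of letters and not a measured binding site.
Chat: gacgctcaGCGTGtgcagccc
Ache: gtcgcctGCGTGaacggtgt
Chrm2: ggagcaggCACGCgggggcac
Chrm3: caagccagCACGCggggagaa
Chrm4, farther from the start: tgtgacatCACGCggctcgga
Chrm4, nearer to the start: aagtgcgaGCGTGagcgcgag

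The arrays had nearly equal distributions, with medians between 6.49 and 6.52 log2 over the genes tested. Ahr averaged 6.76 ± 0.15 log2 in Ahr-KO and 7.54 ± 0.12 in wild type (SD, n = 3 each), without overlap, although its limma adjusted p was 0.320. It stayed above the array median on every Ahr-KO array, and which part of Ahr the probe set reads is not known here, so these values do not show whether the factor was absent. All 8 markers of hippocampal principal neurons were above the median of the genes tested. Among them Prox1 was at 0.28 ± 0.10 log2 (SE; unadjusted p = 0.0256, limma adjusted p = 0.797), Ahr-KO minus wild type. Wfs1 was at -0.37 ± 0.19 (limma adjusted p = 0.817), and Fibcd1 at 0.16 ± 0.09 (limma adjusted p = 0.823). All 8 overlapped between genotypes, with 5 means higher and 3 lower in Ahr-KO. The part of these markers in the differences below was not tested. Genes of the choroid plexus, a secretory tissue beside the hippocampus, were high on 1 array of each genotype. Their score, the mean over 9 genes of the log2 value minus the gene's mean, was 1.31 on Ahr-KO array 1 and -0.49 and -0.56 on Ahr-KO arrays 2 and 3. It was 0.78 on wild-type array 2, against -0.57 and -0.47 on wild-type arrays 1 and 3. Ahr-KO array 1 and wild-type array 2 were therefore also left out together. For the cholinergic genes listed first, a difference that then changed over 1.5 times is given both ways, below or with the other settings. Differences of other genes are given over all arrays only, so their dependence on these arrays is not shown.

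Across the 10 genes, the 3 Ahr-KO values lay above the 3 wild-type values for Slc5a7 and below them for Chrm2, and the other 8 genes overlapped. With limma 0 of the 10 passed an adjusted p under 0.05, where 0% of all genes did. At an unadjusted p under 0.05 there were 2 of the 10, against a background of 6.18% of all genes. These were 1 gene higher, Slc5a7, which had been chosen by this p, against a background of 3.53%, and 1 lower, Chrm2, against 2.65%. The genotypes did not overlap in 11.9% of all genes, with Ahr-KO higher in 6.18% and lower in 5.75%. Of the 9 genes not chosen by their p, 1 was without overlap, Chrm2, a share close to that background. These 9 were nevertheless listed with earlier results of these data known. The median difference of the 10 genes was 0.07 log2, and that of all genes 0.00. By mean, 7 were higher and 3 lower in Ahr-KO. In bulk tissue, fewer cells of a type and less RNA per cell cannot be told apart.

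**Figure D1:**
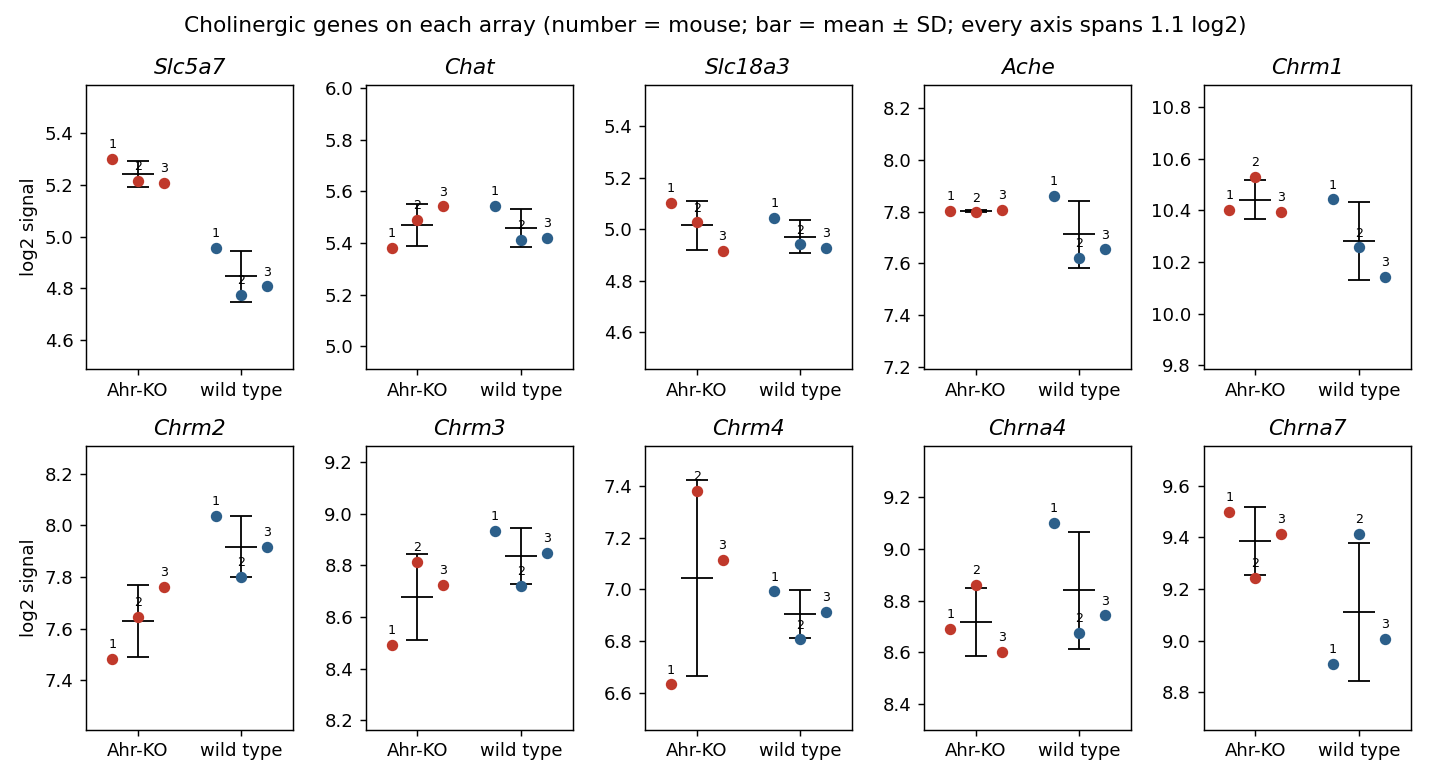
Log2 signal (vertical axis) of each of the 10 cholinergic genes in the 3 Ahr-KO (red) and 3 wild-type (blue) arrays, with the mouse number at each point and the mean ± SD as bars. Every panel spans the same width. Slc5a7 sits between 5.21 and 5.30 in Ahr-KO and between 4.77 and 4.96 in wild type, and Chrm2 between 7.48 and 7.76 in Ahr-KO and between 7.80 and 8.04 in wild type, while the other genes overlap.

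The genes of the terminal come first. Slc5a7, the high-affinity transporter whose choline uptake limits acetylcholine synthesis, read 5.30, 5.22 and 5.21 log2 on Ahr-KO arrays 1 to 3 and 4.96, 4.77 and 4.81 on wild-type arrays 1 to 3. The lowest Ahr-KO array stood 0.25 log2 above the highest wild-type array, a gap wider than the range within either genotype, 0.09 in Ahr-KO and 0.18 in wild type. The difference was 0.40 ± 0.08 (SE), 1.32-fold higher in Ahr-KO, with a 95% interval of 0.21 to 0.58. These values chose the gene, as the 20th lowest p of 22180 (unadjusted p = 0.000956, limma adjusted p = 0.769), and are a description rather than a test. All 6 arrays read Slc5a7 below the array median, and no detection call was used. Without Ahr-KO array 1 and wild-type array 2 the difference was 0.33, and leaving out single arrays gave 0.36 to 0.45.

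Chat, the enzyme that makes acetylcholine, read 5.38, 5.49 and 5.54 log2 in Ahr-KO and 5.54, 5.41 and 5.42 in wild type. Wild-type array 1 was as high as the highest Ahr-KO array, and the difference was 0.01 (95% interval -0.17 to 0.20, limma adjusted p = 0.991). Slc18a3, the vesicular acetylcholine transporter, read 5.10, 5.03 and 4.92 log2 in Ahr-KO and 5.04, 4.94 and 4.93 in wild type, a difference of 0.04 (-0.14 to 0.23, limma adjusted p = 0.958). Both genes were below the array median on all 6 arrays, both differences changed sign when single arrays were left out, and their order over arrays differed, with Ahr-KO array 1 the lowest for Chat and the highest for Slc18a3. Without Ahr-KO array 1 and wild-type array 2 the difference was 0.04 for Chat. The difference between these genes' changes was not tested, since Slc5a7 was chosen for its own.

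Ache, which ends the signal by splitting acetylcholine and is also made by hippocampal cells, was above the array median on all 6 arrays. Its Ahr-KO values were 7.80, 7.80 and 7.81 log2, within 0.01 of each other, and its wild-type values 7.86, 7.62 and 7.65. Wild-type array 1 was the highest of the 6 and the other 2 wild-type arrays the lowest. The difference was 0.09 ± 0.08 (SE; limma adjusted p = 0.887), and it was 0.17 without wild-type array 1 and 0.05 without Ahr-KO array 1 and wild-type array 2.

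The list of genes for making, loading and breaking down acetylcholine and for supplying choline had 13 of 15 members measured, of which 0 passed. Apart from the 4 genes above, the Ahr-KO mean was higher for 4 and lower for 5, with a median difference of -0.02 log2. Slc44a4, of a family of choline transporter-like proteins, read 4.96, 4.91 and 4.98 in Ahr-KO and 5.13, 5.08 and 5.16 in wild type, without overlap (-0.17 ± 0.07, SE; limma adjusted p = 0.806). Bche, butyrylcholinesterase, did not overlap either, with 6.52, 6.34 and 6.51 in Ahr-KO and 6.56, 6.55 and 7.03 in wild type (-0.26 ± 0.14, SE; limma adjusted p = 0.817), where wild-type array 3 lay far above the other 2 wild-type arrays. Slc44a4 and Bche were the 2 without overlap of the 9 measured genes beside the 4 above, against 11.9% of all genes. Slc10a4, a vesicular protein of cholinergic neurons, differed by -0.05.

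Markers of basal forebrain cholinergic neurons, the medial habenula, the striatum and the thalamus gave the following values. All 6 measured markers of basal forebrain cholinergic neurons were below the median of the genes tested. Their score ran from -0.08 to 0.09 in Ahr-KO and from -0.04 to 0.00 in wild type, and all 6 overlapped between genotypes. The lowest p among them belonged to Ngfr, the neurotrophin receptor of these neurons (0.13 ± 0.11, SE), Gbx1 (0.10 ± 0.11) and Nkx2-1 (0.10 ± 0.11). The 4 markers of the medial habenula, another cholinergic nucleus, scored from -0.05 to 0.06 in Ahr-KO and from -0.05 to 0.04 in wild type. The striatum, which has its own cholinergic interneurons, gave -0.08 to 0.06 in Ahr-KO and -0.10 to 0.14 in wild type over 5 genes, and the thalamus -0.14 to 0.00 in Ahr-KO and -0.09 to 0.14 in wild type over 7. None of these 4 scores separated the genotypes. Single markers without overlap were 1 higher and 1 lower of the 5 of the striatum and 1 of the 7 of the thalamus. There were 0 among the 6 basal forebrain and the 4 habenula markers. Over all genes the share without overlap was 11.9%. Gpr6 of the striatum was lower in Ahr-KO (-0.37 ± 0.16, SE), Drd2 of the striatum higher (0.14 ± 0.08) and Rora of the thalamus lower (-0.19 ± 0.08), at limma adjusted p = 0.808, 0.823 and 0.809. The median difference of the thalamus list was -0.19 log2, with 3 means higher and 4 lower in Ahr-KO. Prkcd was at -0.22 ± 0.11 (SE) and Ntng1 at -0.19 ± 0.09, both with overlap. The largest difference in the list was that of Slc17a6, a vesicular glutamate transporter named after its values were seen (-0.41 ± 0.27, SE, with overlap). The part of these markers in the difference of Slc5a7 was not tested.

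The muscarinic receptors went both ways. Chrm1, Chrm3 and Chrm5 couple to Gq and phospholipase C, and Chrm2 and Chrm4 to Gi and to the lowering of cyclic AMP, and in neither class did the mean differences all point one way. Chrm2, which sits on terminals, where it limits acetylcholine release, and on interneurons, read 7.48, 7.65 and 7.76 log2 in Ahr-KO and 8.04, 7.80 and 7.92 in wild type. The genotypes did not overlap, but the gap between them was 0.04 log2, smaller than the range within either genotype, 0.28 in Ahr-KO and 0.24 in wild type. The difference was -0.29 ± 0.10 (SE; 95% interval -0.51 to -0.06; unadjusted p = 0.0187, limma adjusted p = 0.775), 1.22-fold lower in Ahr-KO. Leaving out single arrays gave -0.35 to -0.21, with the smallest difference without Ahr-KO array 1. The unadjusted p was 0.0677 without Ahr-KO array 1 and 0.0675 without wild-type array 1, so Chrm2 left the count at 0.05 in both, while Chrm4 entered it in the first and Chrm1 in the second. The difference without Ahr-KO array 1 and wild-type array 2 was -0.27.

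Chrm4, the other Gi-coupled member, had the widest spread of the 10 genes within a genotype. It read 6.63, 7.38 and 7.12 log2 in Ahr-KO and 6.99, 6.81 and 6.91 in wild type, so that Ahr-KO array 1 was below and Ahr-KO arrays 2 and 3 above all wild-type arrays. The difference was 0.14 ± 0.17 (SE; limma adjusted p = 0.919). It was 0.34 without Ahr-KO array 1, -0.03 without Ahr-KO array 2, and 0.30 without Ahr-KO array 1 and wild-type array 2.

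Chrm1, the main muscarinic receptor of pyramidal and granule neurons, read 10.40, 10.53 and 10.40 log2 in Ahr-KO and 10.44, 10.26 and 10.14 in wild type (0.16 ± 0.09, SE; limma adjusted p = 0.831). Wild-type array 1 lay among the Ahr-KO values and the other 2 wild-type arrays below them. Chrm1 was the only one of the 10 genes with a second probe set of its own, a dim one that gave 6.26, 6.09 and 6.07 in Ahr-KO and 5.96, 6.51 and 6.64 in wild type, a difference of -0.23 in the opposite direction. Chrm3 read 8.49, 8.81 and 8.72 log2 in Ahr-KO and 8.94, 8.72 and 8.85 in wild type (-0.16 ± 0.10, SE; limma adjusted p = 0.842). Its lowest value was on Ahr-KO array 1, without which the difference was -0.07. Chrm5, the remaining member, differed by -0.14 ± 0.27 (SE), with 6.39, 5.64 and 6.06 in Ahr-KO and 5.73, 6.76 and 6.01 in wild type. Its highest 2 values were on Ahr-KO array 1 and wild-type array 2, the arrays with high choroid plexus genes, and what these genes have to do with it was not tested.

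**Figure D2:**
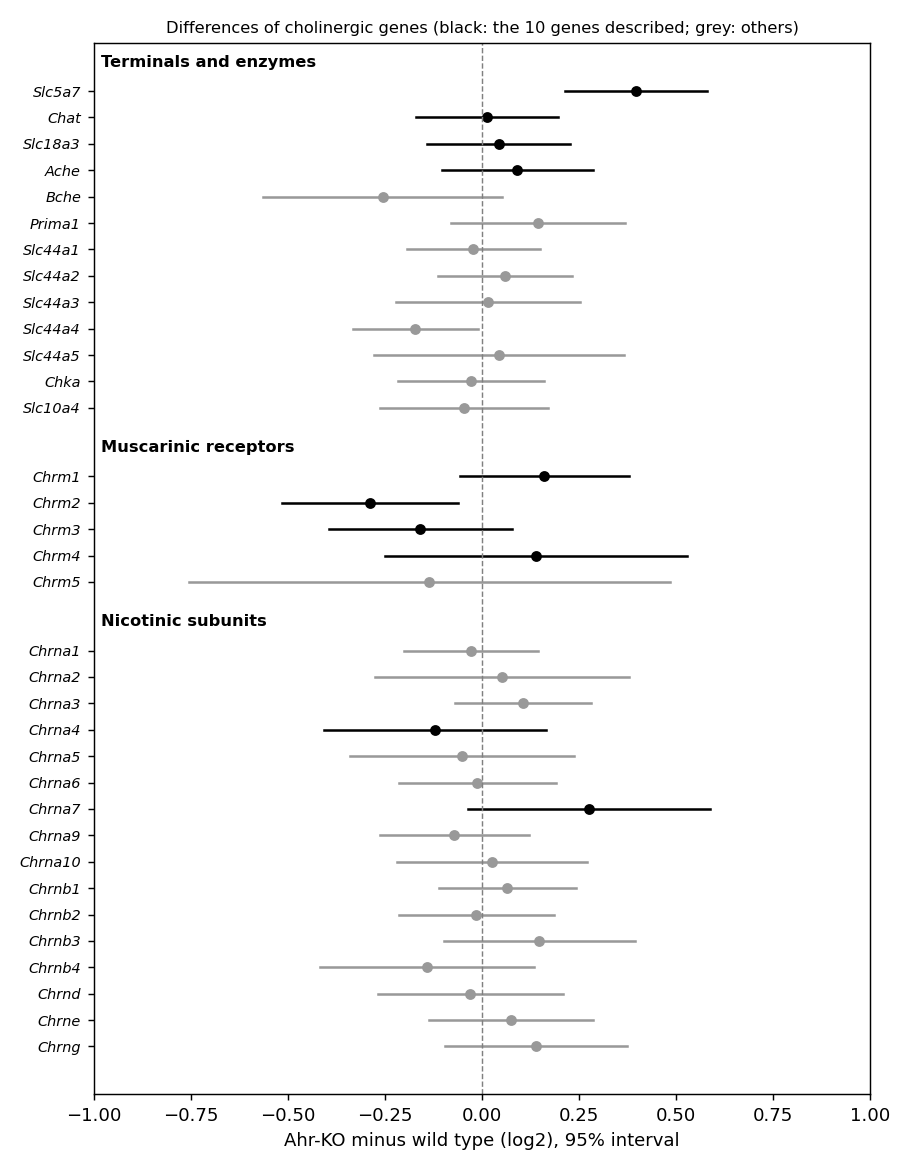
Difference in log2 signal, Ahr-KO minus wild type (horizontal axis), with limma's 95% interval, for genes of terminals and enzymes, muscarinic receptors and nicotinic subunits. The 10 genes described are black and other genes of these lists grey. The interval of Slc5a7 lies between 0.21 and 0.58 and that of Chrm2 between -0.51 and -0.06, while the intervals of the other 8 black genes include 0.

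Chrna7 and Chrna4 encode subunits of the main nicotinic receptors of the forebrain, the homomeric alpha7 channel, which is highly permeable to calcium, and the alpha4 beta2 channel, which binds nicotine with high affinity. Chrna7 read 9.50, 9.24 and 9.41 log2 in Ahr-KO and 8.91, 9.41 and 9.01 in wild type. Wild-type array 2 was as high as Ahr-KO array 3, and the other 2 wild-type arrays were below all Ahr-KO arrays. The difference was 0.28 ± 0.14 (SE; 95% interval -0.04 to 0.59; limma adjusted p = 0.817), 1.21-fold. It was 0.43 without wild-type array 2, 0.18 without wild-type array 1, and 0.37 without Ahr-KO array 1 and wild-type array 2.

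Chrna4 read 8.69, 8.86 and 8.60 log2 in Ahr-KO and 9.10, 8.68 and 8.74 in wild type (-0.12 ± 0.12, SE; limma adjusted p = 0.899). Wild-type array 1 stood above the other 5, and without it the difference was 0.01. The difference was -0.19 when Ahr-KO array 1 and wild-type array 2 were both left out. Chrnb2, the partner of Chrna4 in the high-affinity receptor, differed by -0.01 ± 0.09. Of the 14 nicotinic subunit genes beside Chrna4 and Chrna7, 7 had a higher and 7 a lower mean in Ahr-KO, 0 had an unadjusted p under 0.05, and the differences lay between -0.14 and 0.15, with a median of 0.01. Only Chrnb2 among these 14 was above the median of the genes tested. Chrna3, a subunit of ganglia and habenula, was the 1 of the 14 whose genotypes did not overlap (0.11 ± 0.08, SE), with 5.80, 5.71 and 5.69 in Ahr-KO and 5.68, 5.67 and 5.54 in wild type. Over all genes 11.9% did not overlap.

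Proteins that assemble or tune nicotinic receptors had 9 of 10 members measured, with 3 means higher and 6 lower in Ahr-KO, a median difference of -0.04 log2 and 0 past the threshold. Lynx1, a brake on nicotinic receptors that is tethered to the membrane, read 11.13, 11.08 and 11.13 in Ahr-KO and 11.21, 11.29 and 11.17 in wild type, without overlap (-0.11 ± 0.07, SE). It was the 1 of the 9 without overlap, against 11.9% of all genes. Slurp1, a secreted relative of Lynx1, differed by -0.26 ± 0.11 (SE; unadjusted p = 0.0407, limma adjusted p = 0.806) and was below the array medians. Lypd6b, of the same family, differed by -0.16 ± 0.10, whereas the chaperone genes Ric3 and Tmem35a differed by -0.04 and 0.00.

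The 17 measured effectors of muscarinic receptors were all above the median of the genes tested, and their differences were small, between -0.13 and 0.13, with a median of 0.04 log2, 12 means higher and 5 lower, and 0 at an unadjusted p under 0.05. Kcnj3, a subunit of the potassium channel that Gi-coupled receptors open, read 10.32, 10.41 and 10.41 in Ahr-KO and 10.23, 10.31 and 10.23 in wild type (0.12 ± 0.07, SE; limma adjusted p = 0.831). Kcnj6, another subunit of that channel, differed by 0.13 ± 0.11, and the phospholipase Plcb4 by -0.13 ± 0.11. Gnaq, the G protein alpha subunit used by Chrm1 and Chrm3, differed by 0.08 ± 0.07, and it is named outside the rule, after its values were seen to be without overlap. Kcnj3 and Gnaq were the 2 of the 17 effectors without overlap, against 11.9% of all genes. Over the 50 measured genes of all these lists beside the 10, 26 means were higher and 24 lower in Ahr-KO, with a median of 0.00 log2.

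**Figure D3:**
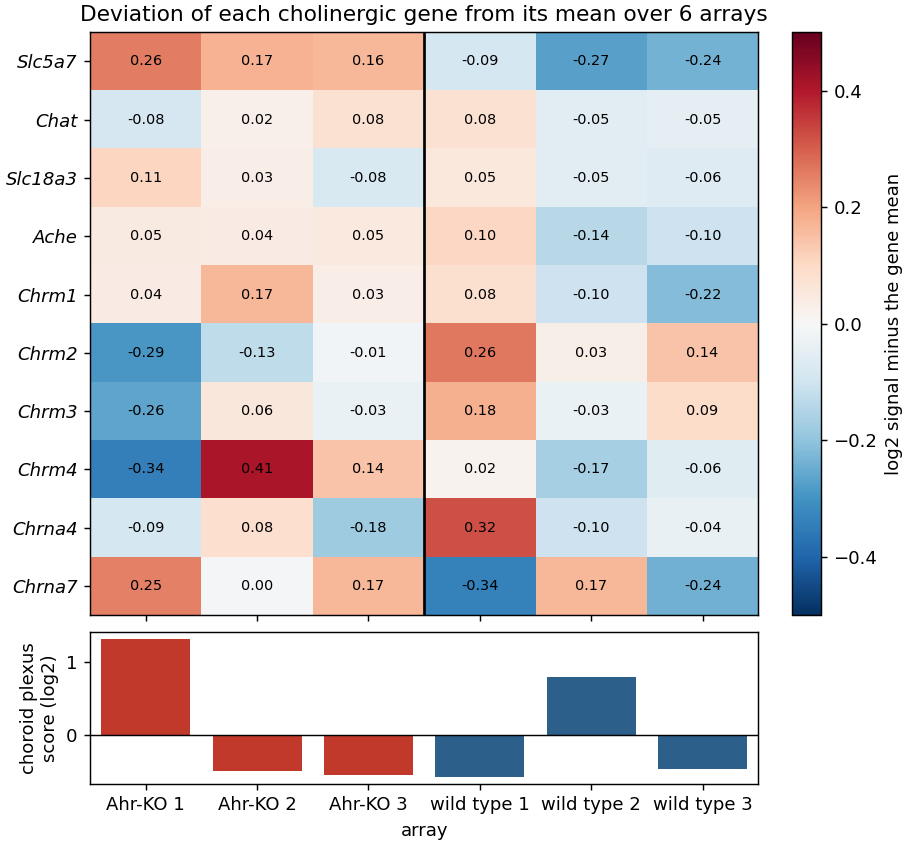
Log2 signal minus the mean of the gene over the 6 arrays, for each cholinergic gene (rows) and array (columns, Ahr-KO left of the line, wild type right), above the choroid plexus score of each array. Slc5a7 is above its mean on all Ahr-KO arrays and below it on all wild-type arrays, and Chrm2 the reverse, whereas Chrm4, Chrna4 and Chrna7 vary as much within a genotype as between them.

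Among themselves the genes followed no common pattern over the 6 arrays. Chrm2 and Chrm3 went together (Pearson r = 0.87) and Chrna7 ran against both (r = -0.82 with Chrm2 and -0.88 with Chrm3). Ache and Chrm1 also went together (r = 0.83). These are descriptions over 6 arrays that share their normalization, and other pairs lay between -0.8 and 0.8. Chrm2 and Chrm3 were lowest on Ahr-KO array 1 and highest on wild-type array 1, and Chrna7 was highest and lowest on these same arrays. Markers of Vip class interneurons, some of which make acetylcholine in the cortex, were measured beside them. Their score over 4 genes ran from -0.10 to 0.07 in Ahr-KO and from -0.03 to 0.05 in wild type, with Vip at -0.40 ± 0.17 (SE) and Calb2, a calcium buffer, at 0.31 ± 0.15. Neither passed (limma adjusted p = 0.806 for Vip and 0.817 for Calb2).

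The genes most like Slc5a7 over the 6 arrays, by Pearson r among 17232 named genes, were Scamp3, a carrier protein of secretory membranes (r = 0.997), Tdrd9, a germline helicase (0.996), Cirbp, a cold-inducible RNA-binding protein (0.995), Rnf111, a ubiquitin ligase (0.985), and Lgals3bp, a secreted glycoprotein (0.985). The likeness rests on 6 values, and 57 genes had r above 0.95. The differences of the 5 named genes between genotypes were 0.16, 0.23, 0.26, 0.23 and 0.26 log2 in that order, smaller than that of Slc5a7. Because Slc5a7 was chosen for its own difference, genes picked for following it share its direction by construction. These values are therefore no separate result. None of the 5 belongs to the cholinergic lists.

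**Figure D4:**
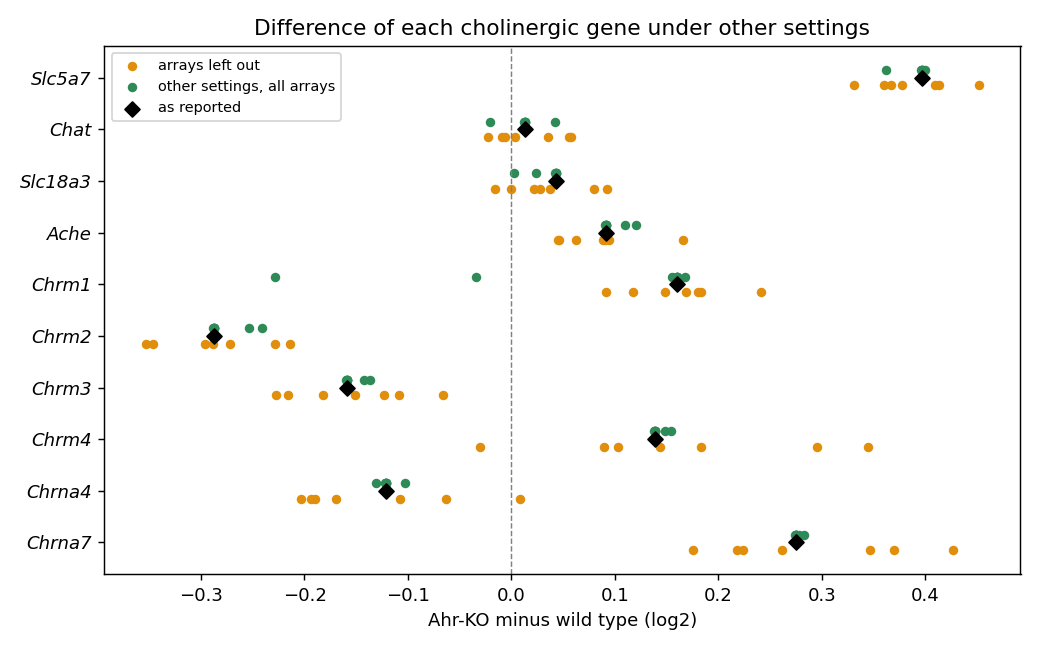
Difference in log2 signal, Ahr-KO minus wild type (horizontal axis), of each cholinergic gene as reported (diamonds), with arrays left out (orange) and under other settings on all arrays (green, with the second probe set of Chrm1 at -0.23). Slc5a7 stays between 0.33 and 0.45 and Chrm2 between -0.35 and -0.21, while Chat, Slc18a3, Chrm1, Chrm4 and Chrna4 have points on both sides of 0.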

How the data were processed

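Each probe set has 1 deposited log2 signal on each array, made by the authors. The submitters' processing notes name RMA and Affymetrix Expression Console and give no version. RMA quantile-normalizes arrays together, which removes overall shifts and tends to compress fold changes. Per the labels' protocols, Trizol RNA was labelled for whole-transcript arrays. The build used for the probe sets is not given in the sources used here.

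Of 41345 rows, 23521 had 1 gene symbol, 1814 several and 16010 none. Symbols were updated by Entrez ID to RefSeq (GRCm38.p6), which held 23328, and the brightest probe set per gene gave 22180 genes. One further probe set that lists Chrm2 with another gene was left out. limma 3.58.1 in R 4.3.3 (lmFit, eBayes, two-sided, Benjamini-Hochberg over all genes, threshold 0.05) compared 3 with 3 arrays without covariates. The fit had 4 residual and 4.33 prior degrees of freedom. It was also tested on simulated data, with independent noise and changes larger than any difference of the 10 genes. That test therefore does not cover differences of their size. The mouse numbers were not treated as pairs in this fit, and the labels do not say whether they are. The number of arrays limits the precision, and with 3 against 3 an exact permutation test cannot go below 0.1. The labels name separate mice. Members, lists and tests were chosen with earlier results of these data known. Named genes are Ahr, the 10 genes, receptor genes by counts and range, up to 3 genes of each other list with the lowest unadjusted p and the 5 genes most like Slc5a7, with predicted genes, small RNAs and chemosensory receptors passed over. Chrm5, Chrna3, Chrnb2, Slc10a4, Slc17a6, Gnaq, Ric3 and Tmem35a are named outside these, after their values were seen. Figures used matplotlib 3.10.9.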

Additional observations from a re-analysis of the deposited data

How the results depend on the processing

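Under 15 other settings, 0 of the 10 cholinergic genes passed an adjusted p under 0.05. Over all genes 0 passed in 14 of them and 2 when the variance model followed intensity, and leaving out single arrays gave 0 to 0. Of 148 recomputed differences of single genes, 138 kept their direction. Those that did not were Chat at -0.020 after repeated quantile normalization, -0.022 without Ahr-KO array 3, -0.0094 without wild-type array 2 and -0.0067 without wild-type array 3 (range over single arrays left out -0.022 to 0.058), Slc18a3 at -0.00049 without Ahr-KO array 1 (range to 0.092) and -0.016 without Ahr-KO array 1 and wild-type array 2, Chrm4 at -0.030 without Ahr-KO array 2 (range to 0.34), Chrna4 at 0.0087 without wild-type array 1 (range from -0.20), and Chrm1 at -0.034 with the mean of its probe sets and -0.23 with its second probe set alone. The cause was not tested. Slc5a7, Chat and Slc18a3 gave no value when dim probe sets, those below the median, were left out. The adjusted p ran from 0.539 to 0.972 for Slc5a7 and from 0.613 to 0.972 for Chrm2. Without Ahr-KO array 1 and wild-type array 2, an alternative for counts chosen after seeing the data, 5 of the 10 genes did not overlap (Slc5a7, Chrm2, Chrm3, Chrm4 and Chrna7), where 34.6% of all genes did not, and 4 had an unadjusted p under 0.05 (Slc5a7, chosen by its p, Chrm2, Chrm4 and Chrna7), where 6.05% of all genes did. Without wild-type array 1 or 2 alone 4 genes did not overlap (23.8% and 21.9% of all genes). With the mouse number as a replicate block 0 genes passed, and the adjusted p of Slc5a7 was 0.926. Deviations of same-numbered arrays correlated at -0.153, -0.215 and 0.0524 across genes. With so few arrays per genotype such correlations cannot decide whether the numbers pair mice. Slc5a7, Chat and Slc18a3 lay below the array medians, and no value here says how far above background they were.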
